A study of Mus musculus with 4 samples.

Results

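The 5 melanocortin genes examined here were Mc4r, Mc3r, Pomc, Agrp and Mrap2, taken by name from the 21883 protein-coding genes of the mouse gene table. Every open-chromatin peak that overlapped one of these genes on the mm10 build, or the 50 kb to each side of it, was taken from the deposited ATAC-seq peak lists. Library peaks that overlapped by 1 bp or more were joined into regions, which gave 31 regions at the 5 genes of 67299 regions in all. ATAC-seq marks open chromatin by the sites at which a transposase can insert sequencing adapters. The tissue was the paraventricular nucleus of the hypothalamus (PVH), dissected from mice aged 12 weeks. All mice, controls included, carried the genotype Otp fl/fl; Ai14, that is a floxed Otp gene and a Cre-dependent fluorescent reporter. In the control group, 2 libraries came from mice injected with AAV-GFP, an adeno-associated virus that leaves Otp intact. In the other group, 2 libraries came from mice injected with AAV-Cre, where Cre can delete Otp in the cells that the virus reaches. Tissue was taken 4 weeks after the injection. The study asked where the promoter of Mc4r lies in open chromatin in the PVH, and whether chromatin near targets of Otp, a homeobox gene active in hypothalamic neurons, closes after its loss in the adult.

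The melanocortin pathway is a main brake on feeding. Pomc encodes the precursor of the agonist α-MSH and Agrp encodes the opposing ligand, and both are made by neurons of the arcuate nucleus that project to the PVH. In the PVH, α-MSH acts on the receptor encoded by Mc4r to reduce food intake, and loss of Mc4r causes obesity in mice and humans. Mc3r encodes the second melanocortin receptor of the brain, and Mrap2 encodes a small membrane protein that binds melanocortin receptors and modulates their signalling.

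The promoter sequences show which part of each gene start the peaks did or did not cover. The RefSeq promoter table for GRCm38.p6, the assembly behind mm10, matched 3 of the 5 genes by symbol, and Mc4r and Agrp are given by name only. Atp6v0d1 is shown with them because the peak nearest to Agrp lay at its start. Each window runs from 250 bases before a gene start to 50 bases after it. Capitals mark matches to any of 5 short motifs, searched on both strands: TAATTA, a core bound by many homeodomain proteins; TGACGTCA, the cyclic AMP response element; GGGCGG, the GC box; TATAAA, the TATA box; and CCAAT.
Mc3r, chr2:172248242-172248541, plus strand: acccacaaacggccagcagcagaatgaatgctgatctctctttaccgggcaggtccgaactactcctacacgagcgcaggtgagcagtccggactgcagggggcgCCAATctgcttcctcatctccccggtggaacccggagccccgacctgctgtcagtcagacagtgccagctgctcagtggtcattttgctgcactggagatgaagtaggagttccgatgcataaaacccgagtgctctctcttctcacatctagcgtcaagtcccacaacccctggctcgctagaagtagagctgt
Pomc, chr12:3954695-3954994, plus strand: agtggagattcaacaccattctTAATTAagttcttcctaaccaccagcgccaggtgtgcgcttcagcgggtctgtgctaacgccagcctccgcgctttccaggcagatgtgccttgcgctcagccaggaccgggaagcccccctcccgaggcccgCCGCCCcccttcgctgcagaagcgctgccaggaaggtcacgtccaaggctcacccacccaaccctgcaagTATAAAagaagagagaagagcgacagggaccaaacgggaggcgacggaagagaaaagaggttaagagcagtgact
Mrap2, chr9:87144056-87144355, plus strand: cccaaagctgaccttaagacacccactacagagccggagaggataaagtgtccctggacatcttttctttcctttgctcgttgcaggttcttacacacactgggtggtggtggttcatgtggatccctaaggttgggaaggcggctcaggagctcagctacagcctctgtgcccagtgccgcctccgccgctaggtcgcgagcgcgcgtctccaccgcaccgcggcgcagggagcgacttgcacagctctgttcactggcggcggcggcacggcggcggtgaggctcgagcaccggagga
Atp6v0d1, chr8:105566015-105566314, minus strand: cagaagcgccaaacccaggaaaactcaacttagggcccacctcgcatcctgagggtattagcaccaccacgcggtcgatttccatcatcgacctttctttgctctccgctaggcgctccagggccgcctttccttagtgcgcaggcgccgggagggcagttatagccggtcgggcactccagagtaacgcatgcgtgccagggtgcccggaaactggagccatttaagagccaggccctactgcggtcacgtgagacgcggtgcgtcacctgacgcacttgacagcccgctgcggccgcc

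The Mc3r window held CCAAT with its first base at position -145 from the start, a motif present in 37.4% of all 32851 promoter windows of the table. The Pomc window held TAATTA at -228, found in 5.29% of all windows. It also held TATAAA at -25, found in 13.6%, and GGGCGG on the other strand at -95, found in 35.7%. These matches did not overlap one another. The Mrap2 and Atp6v0d1 windows held none of the 5 motifs, and TGACGTCA, found in 1.79% of all windows, was in none of the 4. The 4 windows were richer in G and C than the median window of 52.7%, at 57% for Mc3r, 59% for Pomc, 62.7% for Mrap2 and 62.3% for Atp6v0d1. They held 14, 18, 24 and 26 CpG sites in the same order, against a median of 7. A match is a run of letters, and binding was not measured here.

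The peaks were unevenly set over these windows. At Mc3r, peaks covered all 300 bases in both AAV-GFP libraries, 245 bases in AAV-Cre replicate 1 and 0 in AAV-Cre replicate 2. At Mrap2, they covered 296 and 275 bases in the AAV-GFP libraries and 177 and 276 in the AAV-Cre libraries. The Atp6v0d1 window was covered over all 300 bases in each of the 4 libraries. The Pomc window, with its TATA box and TAATTA, was covered over 0 bases in each of the 4 libraries. Across the 17491 protein-coding genes with such a window, 38.6% had promoter peaks in all 4 libraries and 44.5% in none.

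The lists differ in length, which bears on every count that follows. The AAV-GFP libraries held 57682 and 34100 peaks and the AAV-Cre libraries 23384 and 26612, while their median fold enrichment lay between 5.59 and 5.85. The lists hold no read counts, so depth is unknown. In bulk nuclei, fewer cells of a type and less accessibility per cell cannot be told apart, and the protocols mention no step that selects infected cells. It is not stated which stretch of Otp is floxed, so its peaks do not check the deletion: within 1 kb of its ends, Otp had a peak in both AAV-GFP libraries and in AAV-Cre replicate 2. Over all 21883 protein-coding genes, 41.4% had peaks within 1 kb of an end in all 4 libraries and 41.9% in none, and the marker counts are to be read against these shares. Of 7 marker genes of PVH neurons, 1 (Pou3f2) had such gene-end peaks in all 4 libraries. Sim1 and Trh had them in both AAV-GFP libraries and in neither AAV-Cre one, beside 3.09% of all genes with that pattern. Counted from the strongest by −log10 p, the AAV-GFP peaks of Sim1 stood at the 71.8 and 94.4 percentiles of their own lists. For Trh the percentiles were 46.2 and 84.2, and neither gene had a peak in its promoter window in any library. Otp lacked a gene-end peak in AAV-Cre replicate 1, and Avp had none. For Crh, the libraries with a peak were AAV-GFP replicate 1 (10.3) and AAV-Cre replicate 2 (4.42), and for Oxt it was AAV-Cre replicate 1 only (5.52). Of 7 arcuate markers, 3 had gene-end peaks in all 4 libraries (Pomc, Agrp and Ghrh), yet none of the 5 with a promoter window had promoter peaks in all 4. The peak counted for Agrp, which has no promoter window, lay over the start of Atp6v0d1, and that for Pomc lay near its 3′ end. No library held a gene-end peak for the 2 markers of the ventromedial nucleus, Nr5a1 and Fezf1, although the Fezf1 promoter window held a peak in AAV-GFP replicate 1. Among other cells, 1 of 4 astrocyte, 0 of 4 oligodendrocyte and 2 of 2 ependymal and tanycyte markers had gene-end peaks in all 4 libraries, while all 4 microglial and all 3 endothelial markers had none in any library. The part of cell makeup in the results below was not tested.

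Over all 5 genes, 9 of the 31 regions were shared by all 4 libraries, beside 21.7% of all regions. A region with peaks in both AAV-GFP lists and none in the AAV-Cre lists was called control-specific, which held for 3 of the 31, beside 11.5% of all regions. The converse, Cre-specific, held for 1 of the 31, beside 1.18% of all regions. A further 3 regions had peaks in 3 libraries, all of them at Mc3r. The remaining 15 had a peak in 1 library, and 10 of these were in AAV-GFP replicate 1, the longest list. The share of all regions with a peak in 1 library is not given here, so nothing particular to these genes is read from that count. Leaving out a library made the rule looser, since its group was then judged by the 1 library left. Without AAV-GFP replicate 2 the control-specific count was 13, and without AAV-Cre replicate 1 it was 5. The Cre-specific count was 3 without AAV-Cre replicate 1 and 4 without AAV-Cre replicate 2. With every list reduced to the length of the shortest, the counts became 1 control-specific and 2 Cre-specific regions. Of those 2, 1 was Cre-specific as deposited. The other, near Agrp, was shared as deposited and lost its AAV-GFP peaks when the lists were cut. With a −log10 q of at least 5, 3 regions were control-specific, but 1 of them, near Agrp, was among the 3 as deposited.

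Both AAV-GFP libraries had a peak in 15 of the regions, and 9 of these also had a peak in both AAV-Cre libraries. A further 3, the Mc3r regions, had one in a single AAV-Cre library, beside 21.7% of all 28575 such regions. The last 3, of which 2 lay at Mrap2 and 1 near Agrp, had one in neither, beside 27% of all such regions. The authors' deposited group lists, whose peak names mark them as called on the pool of each group, held 15 AAV-GFP peaks in these windows. Of those, 6 had no overlapping AAV-Cre peak, beside 48.7% over the whole list, and they lay at Mc3r (3), Mrap2 (2) and Agrp (1). The AAV-Cre group list held 10 peaks, of which 1, near Pomc, had no overlapping AAV-GFP peak, beside 11.5% over the whole list. In these windows, each group-list peak lay over a region where both libraries of the group had one, and each such region had a group-list peak. The AAV-GFP group-list peak nearest to Agrp also reached over a small region seen in AAV-GFP replicate 1 only. The group-list counts therefore restate the library patterns and are not separate evidence. By position, 7 of the 31 regions lay within 1 kb of an end of a member gene and 3 deeper inside one. Another 3 lay at an end of another gene, 8 deeper inside another gene and 10 between genes.

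**Figure D1:**
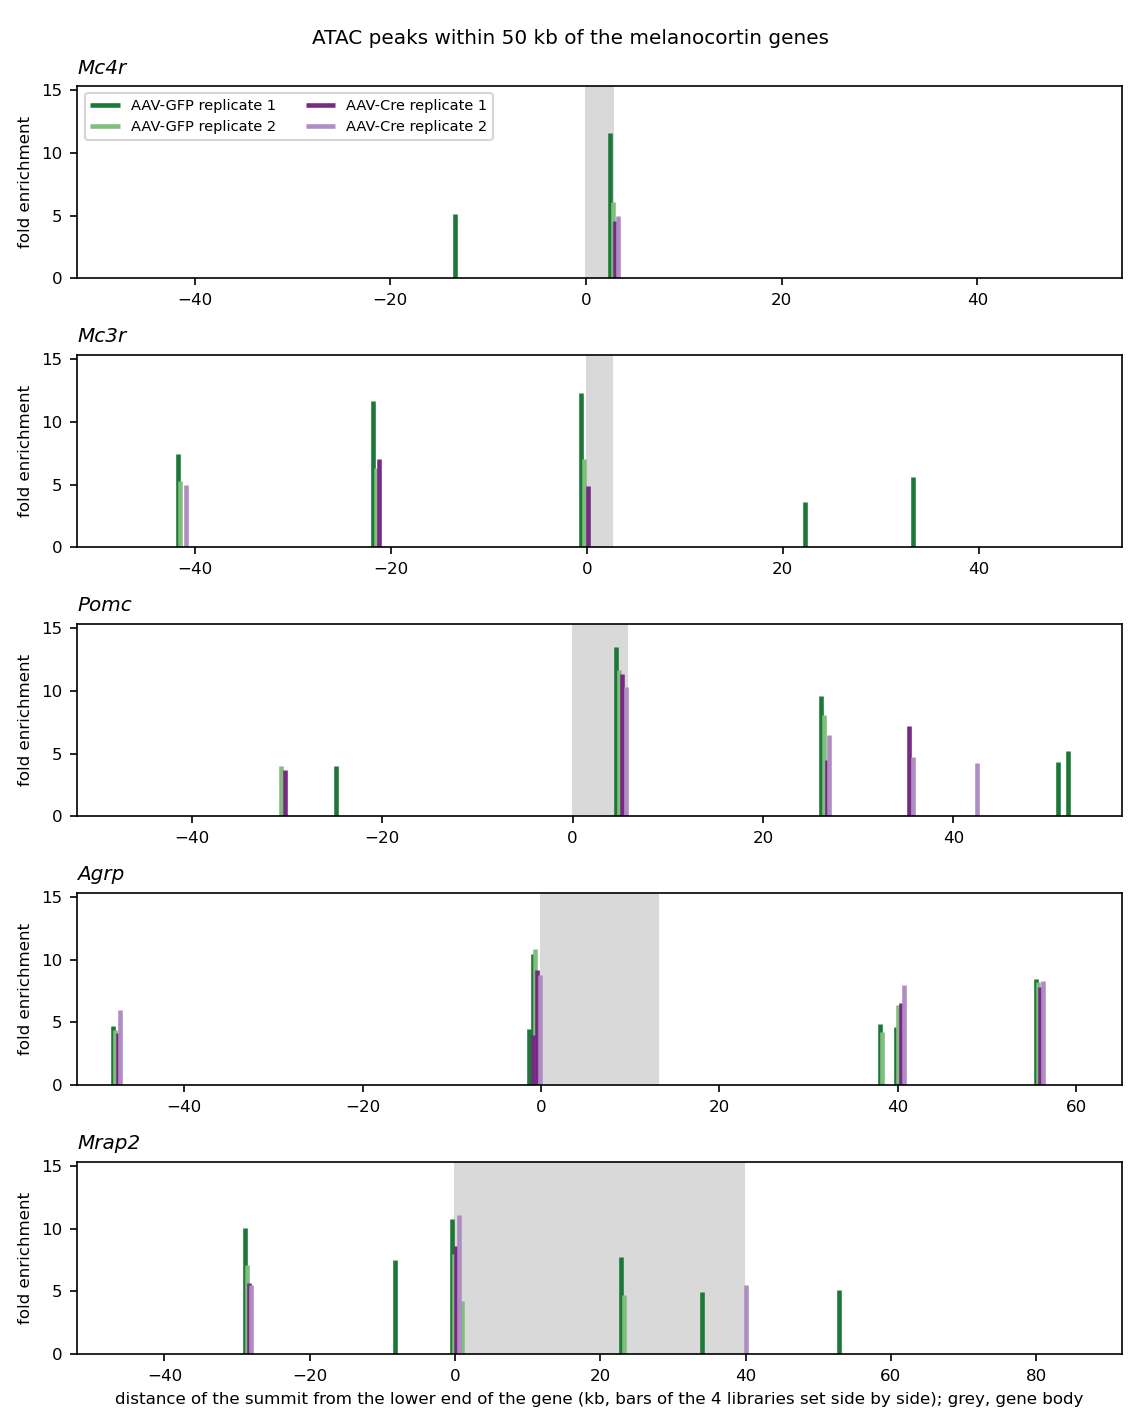
Peaks of the 4 libraries around each gene, with the distance of the summit from the lower end of the gene in kb across and the authors' fold enrichment within each library's own list upward; bars of the libraries at 1 region are set side by side and the gene body is grey. Mc4r has 1 group of 4 bars, at its upper end, the 3 tallest groups at Mc3r lack a library each, and no bar stands at the lower end of Pomc or inside Agrp.

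Mc4r had a single region of open chromatin in all libraries, and it covered the start of the gene. Mc4r lies on chromosome 18 from 66857705 to 66860487, and its 102783 bp window held no other protein-coding gene. Mc4r is read from the minus strand, which is general knowledge of the mouse genome since the tables used give no strand for it, so its upper end is its start. The region ran from 66860348 to 66860676, across that end. The fold enrichment, the authors' measure of summit signal over background, was 11.6 and 6.08 in the AAV-GFP libraries. In the AAV-Cre libraries it was 4.61 and 4.97, and in the group lists 10.7 for AAV-GFP and 5.88 for AAV-Cre. The peak was higher in both AAV-GFP libraries than in either AAV-Cre library, but folds of different lists are not on one scale and are compared only through ranks within a list.

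Within its own list, ranked from the strongest by −log10 p, the Mc4r peak stood at the 15.0 and 53.8 percentiles in the AAV-GFP libraries. It stood at 82.4 and 76.0 in the AAV-Cre libraries. Its −log10 p was 24.0, 9.52, 6.12 and 6.70 in the same order. The AAV-Cre peaks had a −log10 q of 3.27 and 3.83, so neither remained when a −log10 q of at least 5 was asked for, while both AAV-GFP peaks, at 20.6 and 6.61, did. Ranked among the 14634 regions shared by all 4 libraries, which removes the effect of list length, it stood at 51.4 and 85.4 with AAV-GFP and at 93.3 and 91.5 with AAV-Cre. The mean was 68.4 ± 24.0 (SD, n = 2) with AAV-GFP and 92.4 ± 1.25 (SD, n = 2) with AAV-Cre. The groups did not overlap. The shift toward weaker rank was 24.0 points, with an exact two-sided permutation p of 0.333. That is the smallest p that 2 libraries against 2 can give, so no comparison here can reach 0.05, and 7.08% of all shared regions shifted at least as far. The size of the shift rested on the AAV-GFP libraries: it was 7.65 without AAV-GFP replicate 1 and 42.9 without AAV-GFP replicate 2.

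The summit of the Mc4r peak, its point of highest signal, also lay at different places in the groups. In the AAV-GFP libraries it was 72 and 133 bp above the upper end of the gene, that is before the start. In the AAV-Cre libraries its position from that end was -18 and -8 bp, just inside the gene. The mean positions were 102.5 ± 43.1 bp and -13 ± 7.07 bp (SD, n = 2 each), a difference of -115.5 bp with an exact two-sided permutation p of 0.333. The 2 nearest summits of the groups were 80 bp apart. A gap of at least that size between the groups was present at 5.41% of all shared regions, and at 1.4% of the 1782 shared regions whose width was within 20% of that at Mc4r. This measure was chosen after its values were seen. The group lists gave 88 bp for AAV-GFP and -12 bp for AAV-Cre. All 4 library peaks had a stretch of 134 bp in common, so the peaks differed in their summits and margins but lay over the same start.

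**Figure D2:**
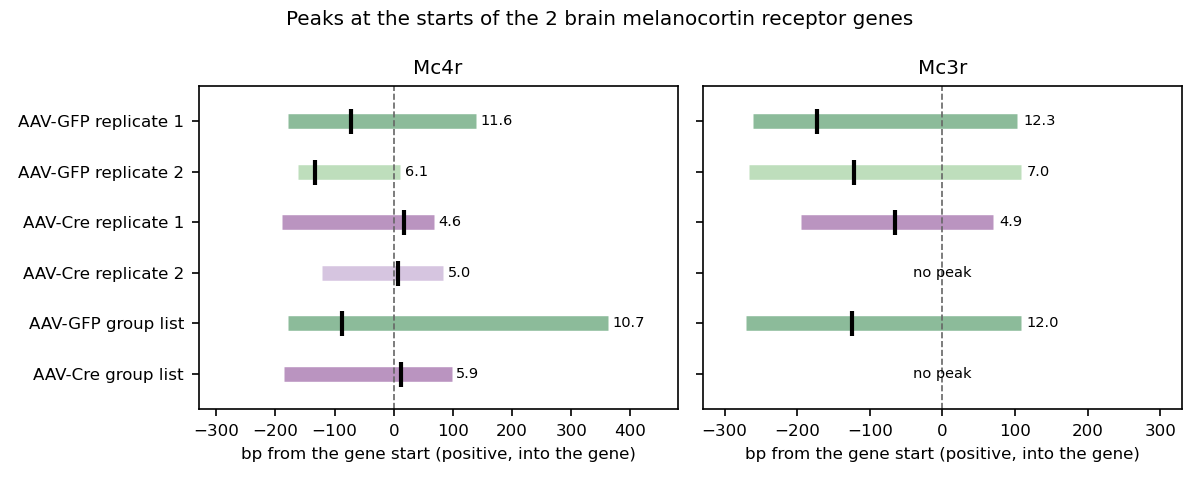
Peak extents (bars), summits (black ticks) and the authors' fold enrichment (numbers) at the starts of Mc4r and Mc3r in the 4 libraries and the 2 group lists, in bp from the gene start with positive values into the gene. At Mc4r the AAV-GFP summits lie before the start and the AAV-Cre summits just after it, and at Mc3r no peak is present in AAV-Cre replicate 2 or in the AAV-Cre group list.

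Away from its start, the Mc4r window was nearly empty. A region at 66844688 to 66844854, 12851 bp below the gene, was open in AAV-GFP replicate 1 only, with a fold of 5.13. The next library peak above the gene was 227518 bp away. The nearest end of another protein-coding gene, Gnal, which encodes a G protein α subunit, was 227622 bp from the start region. Among 9054 other genes with a shared gene-end region, the 5 with the most similar set of 4 rank percentiles were Snx6, Eif4h, Itih3, Rabgap1l and Anks6. Their Euclidean distances from Mc4r were 5.18, 6.22, 7.11, 8.23 and 8.75 percentile points over the 4 libraries. Snx6, which encodes a sorting nexin, stood at 51.6 and 90.1 in the AAV-GFP libraries and at 95.1 and 90.4 in the AAV-Cre libraries. These genes were chosen by that likeness, and their values are a description.

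Mc3r, the other brain receptor, had no region shared by all 4 libraries. It lies on chromosome 2 from 172248492 to 172251114 on the plus strand, and no other protein-coding gene falls in its window. The region over its start, 172248226 to 172248600, had folds of 12.3 and 7.01 in the AAV-GFP libraries and 4.92 in AAV-Cre replicate 1, and no peak in AAV-Cre replicate 2. Within the own lists these peaks stood at the 10.9, 41.1 and 72.7 percentiles. In the group lists this region had a fold of 12.0 for AAV-GFP and no peak for AAV-Cre, the group in which only 1 library had one. As at Mc4r, the peak ranked highest within the list of AAV-GFP replicate 1, and the 1 AAV-Cre peak ranked lower within its list than either AAV-GFP peak. With a −log10 q of at least 5, the AAV-Cre peak was lost and the region was control-specific.

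Upstream of Mc3r, 2 further regions had peaks in both AAV-GFP libraries and in 1 AAV-Cre library. They are named here after their values were seen. At 172227028 to 172227284, 21208 bp before the start, the folds were 11.7 and 6.35 in the AAV-GFP libraries and 7.07 in AAV-Cre replicate 1. At 172207021 to 172207269, 41223 bp before the start, they were 7.46 and 5.29 in the AAV-GFP libraries and 4.97 in AAV-Cre replicate 2. The library without a peak thus differed between these regions. The AAV-GFP group list held both, with folds of 11.9 and 7.90, and the AAV-Cre group list held neither. Since each group-list peak in these windows lay over a region with peaks in both libraries of the group, this absence follows from the library pattern. Across the whole Mc3r window the number of peaks was 5 and 3 in the AAV-GFP libraries, 2 and 1 in the AAV-Cre libraries, and 3 and 0 in the group lists. The other 2 regions, above the gene, were seen in AAV-GFP replicate 1 only, with folds of 3.59 and 5.59.

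Mrap2, the accessory gene, had a peak over its start in all 4 libraries. Mrap2 lies on chromosome 9 from 87144236 to 87184051 on the plus strand, and its start region ran from 87144060 to 87144603. The folds were 10.8 and 7.95 in the AAV-GFP libraries, 8.61 and 11.1 in the AAV-Cre libraries, and 10.9 and 11.6 in the AAV-GFP and AAV-Cre group lists. Within the own lists the peak stood at the 11.0 and 23.1 percentiles with AAV-GFP and at 16.5 and 6.14 with AAV-Cre. These ranks overlapped between the groups, with a shift of -5.73 (exact two-sided permutation p = 0.667), whereas the ranks among shared regions did not. There the percentile was 40.2 and 50.1 in the AAV-GFP libraries and 26.0 and 11.1 in the AAV-Cre libraries, a shift of -26.5 toward stronger rank (exact two-sided permutation p = 0.333). At least as large a shift was seen at 5.31% of all shared regions. The shift had the same sign under both rankings, opposite to that at the Mc4r start, but the separation of the groups held only among shared regions.

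Inside Mrap2, 2 regions were control-specific. One at 87145321 to 87145523, 1085 bp into the gene, had folds of 3.92 and 4.27. The other, at 87167466 to 87167792 and 23230 bp into the gene, had folds of 7.70 and 4.69. The AAV-GFP group list held both, with folds of 4.50 and 7.50. A region at 87178339 was seen in AAV-GFP replicate 1 only (4.93), and one 141 bp inside the upper end in AAV-Cre replicate 2 only (5.52). The control-specific calls were weak: their −log10 q was 3.45 and 3.89 at the first region and 11.5 and 3.80 at the second. Neither region was control-specific with a −log10 q of at least 5 or in lists of equal length.

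An intergenic region 28240 bp before Mrap2, at 87115123 to 87115996, was shared by all 4 libraries. Its folds were 10.05 and 7.07 in the AAV-GFP libraries, 5.65 and 5.54 in the AAV-Cre libraries, and 10.1 and 6.30 in the group lists. The rank percentile was 41.8 and 63.3 against 70.8 and 78.2, a shift of 22.0 toward weaker rank with an exact two-sided permutation p of 0.333 and 8.78% of shared regions shifting as far. It was 11.4 without AAV-GFP replicate 1. The start of Mrap2 and this region, 28240 bp apart, therefore stood on opposite sides of the AAV-GFP ranks. In 1 library alone, AAV-GFP replicate 1, peaks lay at 87136311 (7.53) and at 87197411 inside Cep162, which encodes a centrosomal protein (5.13).

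Pomc, the agonist gene, had its open chromatin at the 3′ end and none at the start. It lies on chromosome 12 from 3954945 to 3960643 on the plus strand. No library held a peak over the start, and the nearest ones were 24352 bp before it and 4799 bp after it. The region from 3959744 to 3960474, ending 169 bp inside the 3′ end, was shared by all 4 libraries. Its folds were 13.5 and 11.7 in the AAV-GFP libraries, 11.4 and 10.3 in the AAV-Cre libraries, and 13.9 and 11.5 in the group lists. It was strong in every list, at the 3.53, 7.22, 5.59 and 7.94 percentiles of the own lists. Among shared regions the ranks overlapped between the groups, at 13.6 and 16.7 against 8.87 and 14.4, a shift of -3.55 (exact two-sided permutation p = 0.667). The sign of so small a shift is not stable: it was 1.39 with ranks within each whole list and 0.432 in the group lists. Of 7379 genes with gene-end peaks in all 4 libraries and a promoter window, 5.96% had, like Pomc, no peak in that window in any library.

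Above Pomc, the window reaches into Efr3b, which encodes a membrane anchor of a phosphatidylinositol kinase. A region inside Efr3b at 3981044 to 3982126, 20401 bp from Pomc, was shared by all 4 libraries. Its folds were 9.59 and 8.07 in the AAV-GFP libraries, 4.52 (the stronger of 2 peaks) and 6.46 in the AAV-Cre libraries, and 9.64 and 5.72 in the group lists. The rank percentile was 26.9 and 37.7 against 81.4 and 48.7. The shift toward weaker rank was 32.7 points (exact two-sided permutation p = 0.333), and 2.71% of all shared regions shifted as far. It rested in large part on AAV-Cre replicate 1, without which it was 14.1, and in that library the peak fell short of a −log10 q of 5. Also inside Efr3b, at 3989989 to 3990300, was the only Cre-specific region of the 5 genes, with folds of 7.16 and 4.70 and 6.57 in the AAV-Cre group list. The other 6 regions of the Pomc window had a peak in 1 library each.

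Agrp, the antagonist gene, had no peak in its gene body in any library. The gene table places it on chromosome 8 from 105566695 to 105579845. The region nearest to it, 105565972 to 105566552, lay 143 bp below its lower end and over the start of Atp6v0d1, which encodes a subunit of the vacuolar proton pump and whose promoter window is shown above. From general knowledge, Agrp is read from the minus strand, so this is the side of its 3′ end. The folds there were 10.4 and 10.9 in the AAV-GFP libraries, 9.15 and 8.79 in the AAV-Cre libraries, and 11.3 and 10.2 in the group lists. The ranks among shared regions overlapped, at 25.0 and 15.0 against 13.1 and 19.1, with a shift of -3.90 (exact two-sided permutation p = 0.667). The shift turned to 1.11 without AAV-GFP replicate 1. With ranks within each whole list it was 2.91, and the groups did not overlap, at 6.56 and 6.47 against 8.26 and 10.6. A small region at 105565714, 868 bp below Agrp, was seen in AAV-GFP replicate 1 only (4.48), and one 1050 bp below in AAV-Cre replicate 1 only (4.03).

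The other regions near Agrp belonged by position to Ripor1 and to Hsd11b2, which encodes an enzyme that inactivates glucocorticoids. Inside Ripor1, a region at 105604886 to 105605296, 25041 bp above Agrp, was control-specific with folds of 4.90 and 4.26, and 4.46 in the AAV-GFP group list. The next region, 105606272 to 105607286, was shared and had folds of 4.61 and 6.37 in the AAV-GFP libraries and 6.59 and 7.97 in the AAV-Cre libraries. Its rank percentile was 84.9 and 51.7 against 33.7 and 21.5, a shift of -40.7 toward stronger rank (exact two-sided permutation p = 0.333), and 1.21% of shared regions shifted as far. It was -23.7 without AAV-GFP replicate 1 and -13.5 with ranks within each whole list. Neighbouring regions within 1 gene thus differed in pattern. At the end of Ripor1 the ranks shifted by -13.5 (p = 0.333 in the same exact test, 18% of shared regions) without overlap, but by 1.94 with overlap when ranked within each whole list. At the end of Hsd11b2, 47531 bp from Agrp and the outermost region inside the window, the folds were 4.76, 4.41, 4.20 and 5.96 and the ranks overlapped, with a shift of -12.3 that was 2.37 without AAV-Cre replicate 2. The first region outside, 50390 bp from Agrp, was control-specific with folds of 3.68 and 3.09.

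**Figure D3:**
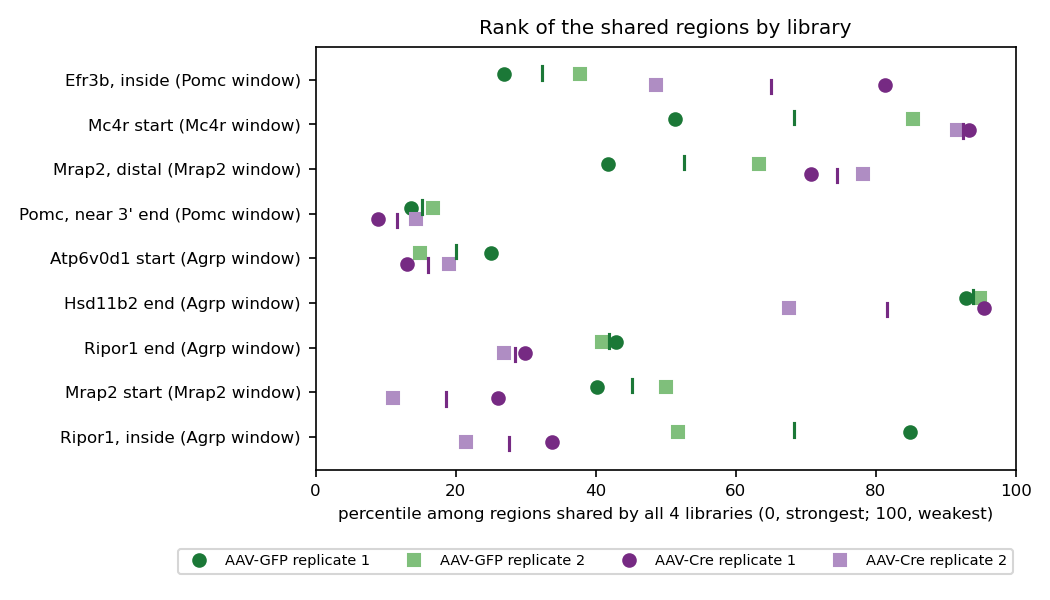
Rank percentile of the 9 shared regions at the melanocortin genes, out of 14634 such regions genome-wide (0, strongest; 100, weakest), with a point for each library and a tick for each group's mean. The top 3 regions have both AAV-Cre points to the right of both AAV-GFP points, the bottom 3 have both to the left, and the groups overlap in the middle 3.

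Across the 9 shared regions, both AAV-Cre ranks were weaker than both AAV-GFP ranks at 3, beside 19.7% of all shared regions, and stronger at another 3, beside 19.8%. The 3 with weaker ranks were the Mc4r start, the region inside Efr3b and the intergenic region before Mrap2. Those with stronger ranks were the Mrap2 start and the pair at Ripor1. Ranked within each whole list, the groups overlapped at the Mrap2 start and at the Ripor1 end. Under that ranking they did not overlap at the Atp6v0d1 start near Agrp, where both AAV-Cre ranks were weaker. The median shift over the 9 was -3.90 points, with a range of -40.7 to 32.7, and over all 14634 shared regions it was -0.0214 with an SD of 16.4. After Benjamini-Hochberg adjustment over these 9 exact permutation tests, p lay between 0.5 and 1. The shifts at the melanocortin genes thus lay in both directions. With 2 libraries against 2 the exact p cannot fall below 0.333, so no shift could have reached 0.05 in these tests.

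The wider pathway was described through peaks within 1 kb of either end of 27 other genes, listed by role. Of the 5 melanocortin genes themselves, 4 had gene-end peaks in all 4 libraries, beside 41.4% of all 21883 protein-coding genes. Only at Mc4r and Mrap2 did those peaks cover the start. Of the 27, 15 had them in all 4 libraries and 7 in none, beside 41.9% of all genes without any. Sim1, a transcription factor needed for PVH development, was the only one of the 27 with the control-specific pattern (folds 4.73 and 4.03), beside 3.09% of all genes, and 0 were Cre-specific, beside 0.0868%. The Sim1 peaks stood at the 71.8 and 94.4 percentiles of the own AAV-GFP lists, and its promoter window held no peak in any library. With the stricter promoter window, available for 23 of the 27, 13 had promoter peaks in all 4 libraries and 7 in none. By that window 0 were control-specific, beside 3.09% of genes with a window, and 0 were Cre-specific, beside 0.0572%.

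All 5 genes for processing peptide precursors had gene-end peaks in all 4 libraries, beside 41.4% of all genes. The folds given for the wider list belong to each library's own list and are not on one scale. No difference between the groups is read from them. Pcsk1, which encodes a protease that cleaves POMC, had folds of 11.6 and 8.25 with AAV-GFP and 6.79 and 7.09 with AAV-Cre. Pcsk2, which encodes the protease that acts after it, had 12.5 and 9.74 against 8.99 and 7.77. Cpe, which encodes a carboxypeptidase that trims the products, had 12.5 and 12.0 against 12.0 and 7.40. The genes of the processing machinery, which many neuroendocrine cells share, thus had gene-end peaks in every library. By the same measure so did Pomc, through the region near its 3′ end, while its start had none.

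Among the other melanocortin receptors, Mc5r had gene-end peaks in all 4 libraries, with folds of 14.0 and 9.67 against 5.93 and 9.39, but it had no promoter window. Mc1r, the pigment cell receptor, had 7.34 and 8.24 against 8.17 and 6.99, but no peak in its promoter window in any library. Mc2r, which encodes the adrenal ACTH receptor, had none at its ends, and neither did Mrap, which encodes its partner. Of the 5 accessory genes, Atrn, which encodes attractin, had 11.9 and 12.2 against 7.23 and 6.22, and its relative Atrnl1 had 7.52 and 7.86 against 8.20 and 4.86. Asip, which encodes the agouti protein of the skin, had 5.67 and 5.79 in the AAV-GFP libraries, 4.63 in AAV-Cre replicate 1 and no peak in AAV-Cre replicate 2. Its promoter window held no peak in any library.

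Of 7 signalling genes, 5 had gene-end peaks in all 4 libraries, beside the same 41.4%. Gnaq and Gna11, which encode G protein α subunits of the Gq class, had folds of 9.87 and 8.42 against 5.75 and 8.08, and of 7.77 and 8.19 against 6.17 and 5.49. Adcy3, which encodes an adenylyl cyclase, had 5.11 and 4.50 against 4.76 and 5.84. Gnas, which encodes the stimulatory α subunit coupled to MC4R, had no peak at its outer ends but had promoter peaks in all 4 libraries. Kcnj13, which encodes an inward rectifier potassium channel, had none. Of 6 regulators and effectors, Ntrk2, which encodes the receptor of BDNF, had peaks in all 4 libraries, with folds of 7.52 and 5.87 against 7.61 and 7.46. For Bdnf, Lepr and Nhlh2, no library held a gene-end peak, but a promoter window of Bdnf held a peak in AAV-GFP replicate 1.

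**Figure D4:**
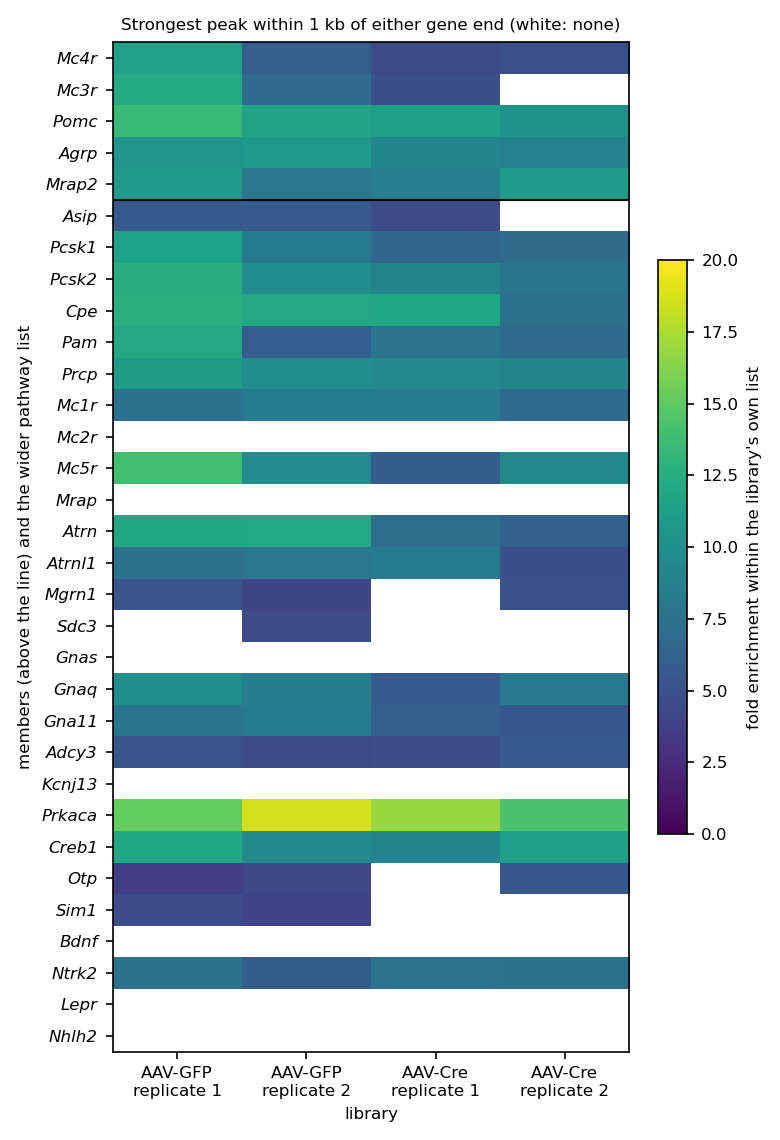
Fold enrichment of the strongest peak within 1 kb of either gene end, by library, for the 5 melanocortin genes (above the line) and the 27 genes of the wider list, where colour gives the authors' value within each library's own list and white means no peak. The processing genes from Pcsk1 to Prcp are filled in all 4 libraries, Mc3r and Asip are white in AAV-Cre replicate 2 alone, and Sim1 is white in both AAV-Cre libraries.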

How the data were processed

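Reads were handled with Trim Galore, FastQC, Bowtie2 and MACS2 on mm10, per the submitters' processing notes. Not given in the sources used here were versions, filters, read shifting and the calling threshold. The authors deposited 1 peak list for each of 4 libraries and 1 for each of 2 groups. The deposited start, end and summit are in bp, and the score the authors deposited equals 10 times −log10 q without its decimals. The fold is the authors' ratio of summit signal over background. Each deposited peak also has a −log10 p and, used for the library lists only, a −log10 q. The lowest −log10 q in the library lists lay between 1.303 and 1.312. No read counts were used, so no interval for depth is given. Whether the libraries come from separate animals, how many animals each holds and their sex are not stated, so p-values measure a spread that may be technical.

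Peaks sharing at least 1 bp were merged with Python 3.11.15, pandas 2.3.3 and numpy 2.4.6, after a check on simulated lists. Gene positions came from RefSeq; distances are to gene ends, and the gene table has no strand or exons. Each library gave 1 rank percentile per shared region, by −log10 p from the strongest, and group means were compared by an exact two-sided permutation test, with Benjamini-Hochberg adjustment in statsmodels 0.14.6. The members, lists and motifs were chosen with earlier results of these data known. All regions within 1 kb of a member were described, and beyond that those shared, control-specific or Cre-specific and over 1 kb from other genes' ends. For the wider list, control-specific and Cre-specific genes and up to 3 per role with peaks in all 4 libraries were to be given values; genes named beyond this rule were chosen after their values were seen. Nearest patterns to Mc4r were the 5 smallest Euclidean distances. The alternatives were flanks of 20 and 100 kb, gene-end windows of 2.5 kb and an overlap of 100 bp. Further ones were a −log10 q of at least 5, lists of equal length, the group lists, leaving out each library and a replicate block. Rank shifts were also taken with ranks by fold, own-list ranks and ranks among shared regions at gene ends. The promoter window for the wider list, the Mc4r summit distance and the alternatives for shared regions away from the members' ends were added after seeing the data.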

Additional observations from a re-analysis of the deposited data

How the results depend on the processing

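The count of 3 control-specific regions was 7 with flanks of 100 kb, 1 in lists of equal length, 6 in the group lists, 3 at a −log10 q of at least 5 (1 of them among the original 3) and 4 to 13 when a library was left out. The count of 1 Cre-specific region was 0 with flanks of 20 kb and with peaks of −log10 q 5 or more. It was 2 with flanks of 100 kb and 1 to 4 when a library was left out. In lists of equal length it was 2, of which 1 was shared as deposited, and it exceeded the control-specific count. The 9 shared regions were 4 with flanks of 20 kb, 16 with flanks of 100 kb and 9 to 11 when a library was left out. In each count with a library left out, its group was judged by the 1 library that remained. The Mc4r shift kept its direction in the 10 alternatives that gave a value, from 7.65 to 44.8, and had no value at a −log10 q of at least 5, where the region is not shared. The Mrap2 shift lay between -35.0 and -5.73 in 11 alternatives, and with own-list ranks (-5.73) the groups overlapped. The alternatives counted for Mc4r and Mrap2 include the replicate block, which leaves a shift unchanged by construction. The Pomc shift reversed to 1.39 with own-list ranks and to 0.432 in the group lists, and lay between -5.47 and -0.642 when a library was left out. The Agrp shift reversed to 2.91 with own-list ranks, where the groups did not overlap. It lay between -8.38 and 1.11 when a library was left out. Of the shared regions away from the members' ends, that at the Hsd11b2 end reversed to 3.83 with own-list ranks and lay between -31.5 and 2.37 when a library was left out, and that at the Ripor1 end reversed to 1.94 with own-list ranks. The Mc4r summit difference lay between -146 and -85 bp. For the wider list, the single control-specific gene became 2 with windows of 2.5 kb, 0 in lists of equal length and in the promoter window, 3 in the group lists and 1 to 3 when a library was left out. The cause of these changes was not tested.

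The labels number the libraries 1 and 2 in each group, but rank deviations of same-numbered libraries had a Pearson r of -0.0166 over 14634 shared regions, so the numbers were taken as names, not pairs. With the replicate block the Mc4r shift of 24.0 and the summit difference of -115.5 bp had a sign-flip p of 0.5, the smallest that 2 pairs can give. Peak lists cannot separate a closed site from one under the calling threshold, and 2 libraries a group limit every comparison.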

Other observations

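The nearest region outside the Mc4r window, 108264 bp from the gene, was control-specific with folds of 4.66 and 5.82. At Mc3r the nearest one outside, at 61388 bp, had a peak in AAV-GFP replicate 1 (5.13) and in AAV-Cre replicate 2 (6.63). At Pomc the nearest, at 59044 bp, had peaks in both AAV-GFP libraries (3.78 and 4.14) and in AAV-Cre replicate 2 (5.43). At Mrap2 it lay 54870 bp from the gene and was seen in AAV-GFP replicate 1 only (3.26).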
